A study of Mus musculus with 18 samples.

Results

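The 8 genes described here release the precursor of prostaglandin E2, turn it into the prostaglandin, sense it or break it down. They are Pla2g4a, the cyclooxygenase genes Ptgs1 and Ptgs2, the prostaglandin E synthase genes Ptges, Ptges2 and Ptges3, the receptor gene Ptger4 and the breakdown gene Hpgd, and they make up 8 of the 55414 genes in the count table. They were selected on measured values of these same libraries, namely their levels with palmitate and the spread of those levels between libraries, so their values with palmitate are given as description with no p, and nothing is read from the counts of calls that include them. All 8 passed the filter of at least 10 counts over the libraries, which 21772 genes passed. Ptges passed it with 50 counts and Hpgd with 375, while the other 6 held between 4647 and 322611.

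RNA was sequenced from cultures of C2C12, a mouse myoblast line, that had been differentiated for 6 days towards myotubes. The cells carried a non-targeting siRNA (siNtc), an siRNA against Erk3 (siErk3) or an siRNA against Mk5 (siMk5). They were then kept for 16 h in medium with bovine serum albumin (BSA), the carrier, or with BSA and 0.5 mM palmitic acid (PA), a saturated fatty acid. Each of the 6 groups held 3 libraries, and total counts ran from 13041979 to 28496727 with a median of 22417470. Nothing in the labels says that the libraries of a group came from separate cultures, so p-values measure only the spread between these samples, which may be technical.

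Prostaglandins are lipid signals made on demand. The cytosolic phospholipase A2 encoded by Pla2g4a cuts arachidonic acid out of membranes, a cyclooxygenase turns it into prostaglandin H2, and a terminal synthase then makes prostaglandin E2 or a related prostanoid. Ptgs1 encodes the form of cyclooxygenase that most tissues keep on, and Ptgs2 the form that stress, cytokines and growth factors switch on. In muscle, prostaglandin E2 is known to act on muscle stem cells through the receptor encoded by Ptger4, and the dehydrogenase encoded by Hpgd inactivates it.

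The labels were first checked against the silenced genes. Mapk6, which encodes the kinase Erk3, stood at 135, 129 and 133 TMM-scaled CPM (counts scaled to a common library size) in the siNtc libraries with BSA and at 56.6, 60.4 and 55.2 in the siErk3 libraries. With PA the siNtc libraries held 215, 236 and 244 CPM and the siErk3 libraries 131, 119 and 109. The groups did not overlap in either medium. Mapk6 fell by 1.21 on the log2 scale with siErk3 in BSA (SE 0.06, edgeR adjusted p = 1.77e-14) and by 0.95 in PA (SE 0.06, edgeR adjusted p = 1.21e-12).

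Mapkapk5, which encodes the kinase Mk5, was scarce. It held 2.53, 2.54 and 2.32 CPM in siNtc and 1.18, 2.01 and 1.70 in siMk5 with BSA, and with PA 2.52, 3.92 and 3.28 against 2.43, 2.33 and 2.17. The siMk5 libraries were lower than the siNtc libraries in both media without overlap, but the difference did not pass after adjustment. It was -0.61 on the log2 scale in BSA (SE 0.21, edgeR adjusted p = 0.469) and -0.49 in PA (SE 0.18, edgeR adjusted p = 0.469). The counts of this gene are also reduced by its overlap with Gm42878, which shares 56.4% of the exonic bases of Mapkapk5 on the same strand, because read pairs in shared bases were assigned to neither gene.

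Markers of differentiated muscle were abundant in every library. The 10 myotube markers summed to 9809, 10340 and 10520 CPM from the lowest to the highest siNtc library with BSA, and to 9131, 9279 and 9318 with PA, with the actin gene Acta1 the most abundant at a group mean of 3190 and 3025 CPM. The 6 markers of myoblasts and reserve cells had a median sum of 314 CPM with BSA and 196 with PA, led by Myod1. Of the leukocyte markers, Adgre1 was at 0 counts in all 18 libraries, Ptprc was at 2 and the 3 tested markers summed to between 1.44 and 2.52 CPM in all libraries. The libraries therefore carried the markers of the labelled cells, and the defining leukocyte genes were at or near 0.

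Some of these marker lists moved with PA. In siNtc, 3 of 3 proliferation markers fell, from a median sum of 780 to 364 CPM with Mki67 the most abundant, as did 4 of 6 myoblast and reserve cell markers and 5 of 10 myotube markers. Of the fibroblast and adipogenic markers 3 of 4 tested fell, from a median sum of 1585 to 699 CPM with Col1a1 the most abundant, while Adipoq held 1 count in all 18 libraries. Of all tested genes, 15.1% were called lower in siNtc. In both siErk3 and siMk5 the counts in the same order were 3 of 3, 4 of 6, 3 of 10 and 3 of 4. There 16.3% and 14.6% of all tested genes were called lower. Of the 3 scarce leukocyte markers, Csf1r was called lower in siNtc (-1.503, edgeR adjusted p = 0.0234) and siErk3 (-1.78, edgeR adjusted p = 0.0181), and Cd68 higher in siMk5 (0.66, edgeR adjusted p = 0.0304). In bulk RNA, fewer cells of a type and less RNA per cell cannot be told apart. The part of these shifts in the levels of the prostaglandin genes was not tested.

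Pla2g4a, which starts the pathway, held 22.6, 22.7 and 20.2 CPM in the siNtc libraries with BSA and 71.3, 75.4 and 80.1 with PA. The lowest PA library held 78.9 CPM in siErk3 and 71.5 in siMk5, and the highest BSA library 24.2 and 22.7. Every PA library was above every BSA library. The share of all tested genes without such overlap was not counted, so nothing is read from it here or for the genes below. Differences with PA were common, with an unadjusted edgeR p below 0.05 for 50% of all tested genes in siNtc. In siErk3 and siMk5 this share was 51.9% and 49.1%. The log2 fold change of PA against BSA was 1.79 (SE 0.06) in siNtc, 1.78 (SE 0.06) in siErk3 and 1.77 (SE 0.06) in siMk5.

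Ptgs2, the inducible cyclooxygenase, had the largest difference of the 7 genes other than Ptges. The fold of Ptges in siNtc rests on 0 counts with BSA and cannot be ranked. With BSA the siNtc libraries held 35.8, 29.6 and 28.7 CPM, the siErk3 libraries 31.6, 35.0 and 32.3, and the siMk5 libraries 35.4, 32.7 and 31.2. With PA the siNtc libraries held 1258, 1525 and 1913 CPM, the siErk3 libraries 2187, 1497 and 1198, and the siMk5 libraries 1882, 1571 and 1338. Thus the 9 BSA libraries lay between 28.7 and 35.8 CPM, and the 9 PA libraries were all far above them and spread more widely. The log2 fold change was 5.65 (SE 0.17) in siNtc, 5.62 (SE 0.17) in siErk3 and 5.59 (SE 0.17) in siMk5. In siNtc its share of all counts was 0.00319% with BSA and 0.151% with PA, and its place among the 21772 tested genes, by counts per length, was 5846 with BSA and 75 with PA.

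Ptgs1, the cyclooxygenase that is usually always on, also stood higher with PA, by a smaller step. Its levels were 108, 118 and 115 CPM in siNtc with BSA and 174, 185 and 187 with PA. In siErk3 the PA libraries lay between 185 and 190 CPM and the BSA libraries between 112.6 and 112.7, and in siMk5 between 187 and 194 against 112 and 123. No PA library overlapped a BSA library of the same siRNA. The log2 fold change was 0.67 (SE 0.05) in siNtc, 0.74 (SE 0.04) in siErk3 and 0.69 (SE 0.05) in siMk5.

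The terminal synthases for prostaglandin E2 did not share one pattern. Ptges3, which encodes a synthase that also serves as a co-chaperone of Hsp90, held 118, 117 and 123 CPM in siNtc with BSA and 180, 181 and 186 with PA. Ptges2, the membrane-bound synthase of constitutive type, held 15.2, 17.5 and 17.1 CPM with BSA and 21.55, 20.52 and 21.02 with PA. For both genes each PA library was above the BSA libraries of its siRNA. The log2 fold change of Ptges3 was 0.61 (SE 0.05) in siNtc, 0.49 (SE 0.05) in siErk3 and 0.47 (SE 0.05) in siMk5. The difference for Ptges2 was smaller, at 0.33 (SE 0.07), 0.20 (SE 0.06) and 0.15 (SE 0.07) in the same order, below the fold of 1.3 used for calls.

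Ptges, the inducible synthase that is usually paired with the inducible cyclooxygenase, was almost absent. Its counts in siNtc were 0, 0 and 0 with BSA and 5, 5 and 2 with PA. In siErk3 they were 3, 1 and 0 with BSA and 5, 2 and 5 with PA, and in siMk5 2, 5 and 0 with BSA and 5, 4 and 6 with PA. No library held more than 6 counts of this gene, whereas each PA library held at least 24142 counts of Ptgs2. In siNtc the 12 counts over the PA group, set against a floor of 3 counts over the BSA group, gave a ratio of 3.71. This ratio leaves out the counting error of the 12 counts, so it is not a limit like the intervals that follow. In siErk3 the ratio of PA to BSA was 3.20 with a 95% interval of 0.97 to 13.6, and in siMk5 it was 2.11 with an interval of 0.811 to 6.12, so with these few counts the ratios are loosely set. Intervals and floors cover counting error only.

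On the receiving and removing side the levels were lower with PA. Ptger4, which encodes the EP4 receptor for prostaglandin E2, held 12.9, 13.9 and 12.4 CPM in siNtc with BSA and 12.4, 11.2 and 11.2 with PA, and these groups overlapped. In siErk3 it held 11.95 to 13.2 CPM with BSA and 9.01 to 10.9 with PA, and in siMk5 13.3 to 14.2 against 9.74 to 10.5, without overlap. On the log2 scale the difference was -0.17 (SE 0.08) in siNtc, -0.36 (SE 0.08) in siErk3 and -0.44 (SE 0.08) in siMk5. The 3 values are given as description, and no difference between them is read, since all of them rest on the PA libraries.

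Hpgd, which encodes the dehydrogenase that inactivates prostaglandin E2, was scarce. It had 22, 31 and 30 counts in siNtc with BSA and 10, 12 and 10 with PA. In siErk3 the counts were 33, 26 and 33 with BSA and 10, 15 and 4 with PA, and in siMk5 34, 23 and 59 against 4, 6 and 13. In CPM every PA library was below the BSA libraries of its siRNA, but with so few counts the size of the step is loosely set. PA differed from BSA by -1.48 (SE 0.38) on the log2 scale in siNtc, -1.57 (SE 0.38) in siErk3 and -2.34 (SE 0.38) in siMk5, and the siMk5 value lay between -3.004 and -1.845 when 1 library was left out. The library with 59 counts, siMk5 with BSA replicate 3, was the highest.

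**Figure D1:**
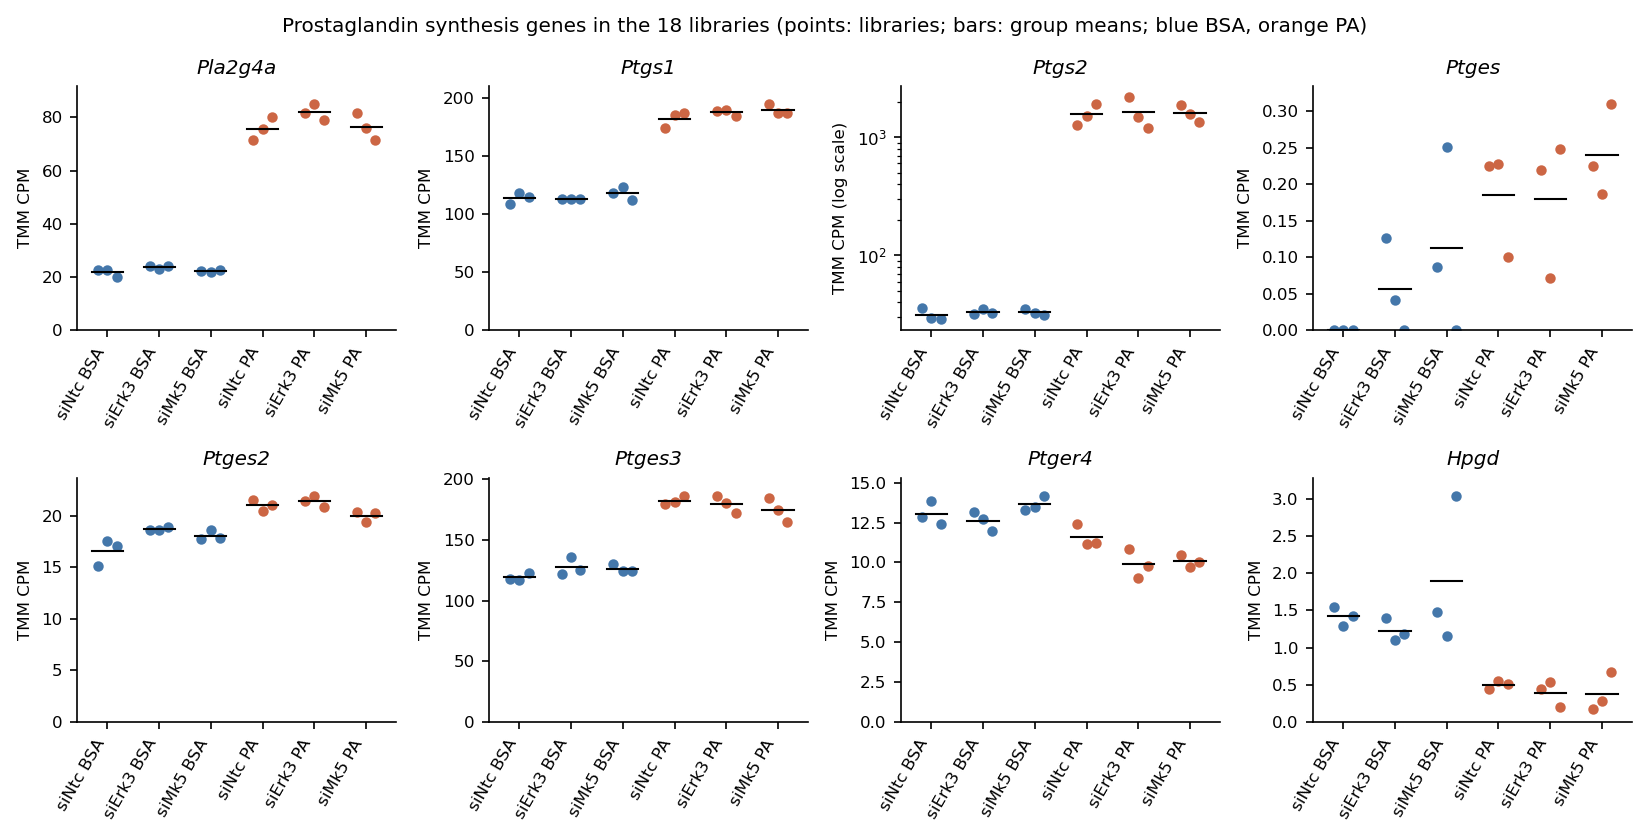
Level of the 8 genes in each of the 18 libraries, in TMM-scaled CPM, with the 6 groups on the horizontal axis; points are libraries, bars are group means of 3 libraries, and the axis of Ptgs2 is logarithmic. Ptgs2 lies between 28.7 and 35.8 CPM in the BSA libraries and between 1198 and 2187 CPM in the PA libraries, and Ptges is at most 0.310 CPM.

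The plot of the levels by library shows similar levels under the 3 siRNAs for Pla2g4a, Ptgs1, Ptgs2 and Ptges3, with a step between the media. It also shows that Ptgs2 alone among them spreads visibly within the PA groups. By the criteria used across all genes (adjusted p below 0.05 and a fold above 1.3), 5 of the 8 were higher and 1 lower in siNtc with PA, where 15.5% of all tested genes were called higher and 15.1% lower. In siErk3 4 were higher and 1 lower (15.8% and 16.3% of all tested genes), and in siMk5 4 were higher and 2 lower (15.1% and 14.6%). The 1 gene more among the higher in siNtc was Ptges, with 12 counts over the group against 0. The genes were selected with these contrasts known, so nothing is read from the counts.

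The order of the 8 genes was compared per kilobase of exon, the scale on which levels of different genes can be set side by side. With BSA and siNtc, Ptges3 led with 53.7 ± 1.53 CPM per kb (SD, n = 3), followed by Ptgs1 with 29.3 ± 1.29 and Ptgs2 with 6.85 ± 0.848. Pla2g4a with 3.41 ± 0.219 and Ptges2 with 3.28 ± 0.250 overlapped, and Ptger4 with 1.96 ± 0.114, Hpgd with 0.843 ± 0.0753 and Ptges with 0 came last. The other BSA groups kept this order, apart from the overlapping pair, which changed places in siMk5.

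With PA the order had a different leader. Ptgs2 stood first with 342 ± 71.9 CPM per kb (SD, n = 3) in siNtc, ahead of Ptges3 with 82.2 ± 1.501, Ptgs1 with 46.8 ± 1.83 and Pla2g4a with 11.8 ± 0.690. Ptges2 followed with 4.16 ± 0.102, Ptger4 with 1.75 ± 0.106, Hpgd with 0.298 ± 0.0290 and Ptges with 0.0470 ± 0.0184. No neighbours in this order overlapped, and it was the same in siErk3 and siMk5. The constitutive cyclooxygenase was thus the more abundant of the pair with BSA and the less abundant with PA.

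Of the well counted genes, Ptgs2 had the widest spread between PA libraries. The SD of its log2 CPM within a group (n = 3) was 0.30 in siNtc, 0.44 in siErk3 and 0.25 in siMk5 with PA, against 0.17, 0.08 and 0.09 with BSA. Counting error alone would give 0.01 at these counts in the PA groups. Among the 12734 genes with a mean of at least 1 CPM, those PA values lay at the percentiles 94.5, 97.8 and 92.3, where the median gene had an SD of 0.08, 0.09 and 0.07. The highest PA library exceeded the lowest by 1.52-fold in siNtc, 1.82-fold in siErk3 and 1.41-fold in siMk5.

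The other well counted genes were tighter under the same treatment. With PA the SD of Pla2g4a was 0.08 in siNtc, 0.05 in siErk3 and 0.10 in siMk5, that of Ptgs1 was 0.06, 0.02 and 0.03, and that of Ptges3 was 0.03, 0.06 and 0.08. Ptges2 had 0.04 in each group and Ptger4 0.09, 0.13 and 0.05, with Ptger4 close to the counting error of 0.09 to 0.10. For Hpgd and Ptges counting error alone was between 0.44 and 0.72, so their spread can hardly be read.

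**Figure D2:**
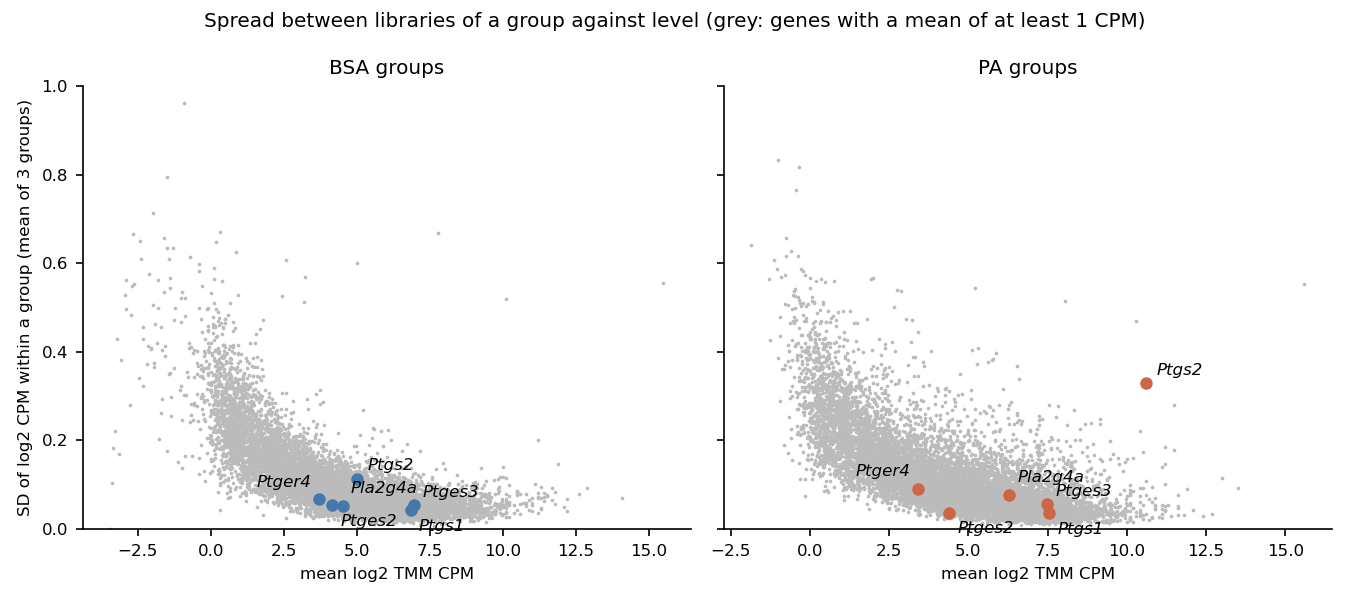
SD of log2 CPM within a group, averaged over the 3 groups of each medium, against the mean log2 CPM of the gene in that medium; grey points are the 12734 genes with a mean of at least 1 CPM and coloured points the 6 well counted prostaglandin genes. Ptgs2 has an average SD of 0.11 with BSA, in the upper part of the grey cloud, and of 0.33 with PA, above nearly all genes of its level.

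In the plot of spread against level Ptgs2 is above the bulk of the genes in both panels. Of the 4749 genes within 1 log2 unit of its level with BSA, 94.3% had a smaller average SD, and with PA this held for 99% of 102 genes. The gene was selected with its spread between PA libraries known, so these places and percentiles describe it and nothing is read from them. The libraries behind its spread were siErk3 replicate 1 and siNtc replicate 3 on the high side and siErk3 replicate 3 and siNtc replicate 1 on the low side. Replicates have no order, and the high and low libraries carried different replicate numbers in the siNtc group from those in the siErk3 and siMk5 groups.

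The deviations of Ptgs2 were then set beside those of other genes in the same libraries, a comparison chosen after its spread had been seen. In each library the log2 CPM of Ptgs2 minus its group mean was compared with the median deviation of the 2346 genes with a mean of at least 1 CPM called higher with PA under all 3 siRNAs and of the 2158 called lower, the 8 genes left out. Over the 9 PA libraries, which share depth and scaling with the values compared, Pearson's r was 0.984 with the median of the higher genes (Spearman's rho 0.933) and -0.995 with that of the lower genes (rho -0.983). Without the 2 libraries farthest from the median the values were 0.985 and -0.992. Both sets were defined by their change with PA in these same libraries, and their medians share the scaling of each library. The 2 values are therefore not separate, and nothing is concluded from them.

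In siErk3 replicate 1, Ptgs2 was 0.47 above its group mean, the higher genes were 0.07 above theirs at the median and the lower genes were at -0.13. In siErk3 replicate 3 the same values were -0.40, -0.07 and 0.12. Over the same 9 libraries r with Ptgs2 was 0.148 (rho 0.05) for the total count of a library and -0.341 (rho -0.45) for the share of 18S ribosomal RNA, and without the 2 farthest both values of r were -0.08. With BSA the deviations of Ptgs2 ran against both medians (r = -0.669 and -0.842, n = 9), and also against the total count (r = -0.640) and the share of 18S (r = -0.633). Without the 2 farthest libraries these 4 values were -0.397, -0.574, -0.392 and -0.329.

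**Figure D3:**
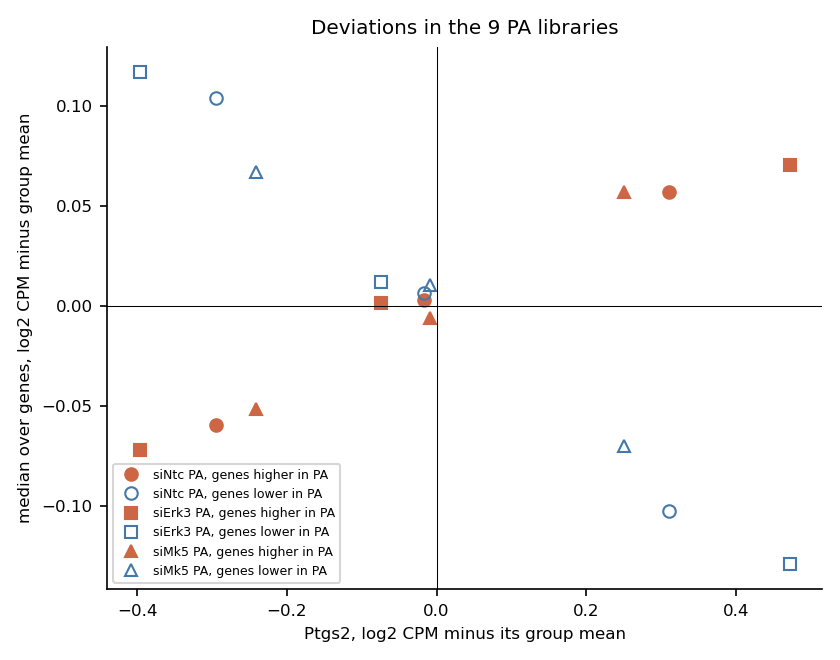
Deviation from the group mean in the 9 PA libraries, in log2 CPM, with that of Ptgs2 on the horizontal axis and the median over genes on the vertical axis; filled symbols are the 2346 genes of at least 1 CPM called higher with PA under all 3 siRNAs, open symbols the 2158 called lower under all 3. The filled symbols climb from -0.07 to 0.07 and the open symbols descend from 0.12 to -0.13 as Ptgs2 goes from -0.40 to 0.47.

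The plot of deviations places the libraries of each siRNA on the same pair of lines. Among the prostaglandin genes, the deviations of Ptges3 followed those of Ptgs2 with r = 0.858 (rho 0.85), those of Pla2g4a with r = 0.700 (rho 0.65) and those of Ptgs1 with r = 0.700 (rho 0.733), all with n = 9. Without the 2 farthest libraries these were 0.811, 0.909 and 0.849. Ptges2 had r = 0.074, Ptger4 r = 0.272 and the scarce Hpgd r = 0.000265, which turned to -0.205, -0.175 and -0.542 without them. Of 12627 genes compared, 1031 had an r above 0.9 with Ptgs2 and 789 an r below -0.9, against 336 and 170 with Ptges3, 130 and 76 with Pla2g4a, 99 and 87 with Ptgs1, 19 and 20 with Ptger4, 19 and 18 with Hpgd and 12 and 11 with Ptges2. The 5 genes that followed Ptgs2 most closely were Ereg, Epha2, Maff, Slc25a37 and Lrrfip1, with r between 0.998 and 0.999. Those that ran most closely against it were Slc1a3, Col6a2, Ccdc80, Bgn and Notch3, with r between -0.998 and -0.995. All 10 were picked out by these values, so the values describe these 9 libraries and test nothing.

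Over all 18 libraries the genes most like Ptgs2 in log2 CPM were Slc25a37, a mitochondrial iron importer, with r = 0.9997 (Spearman's rho 0.984), the endoplasmic reticulum chaperones Hspa5 (r = 0.9989) and Hsp90b1 (r = 0.9987), the phosphate transporter Slc20a1 (r = 0.9986) and the chromatin protein Hmga2 (r = 0.9986). Of 12728 genes searched, 2175 had an r above 0.95 with Ptgs2. The 18 points fall into the 2 media, so any gene with a large step between them scores high. For Ptges the same search gave Faxc (r = 0.894), Tmed10-ps, Fastkd5, Zbtb10 and Pde3b (r = 0.824). The Ptges values rest on 0 to 6 counts a library and carry little information.

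Silencing was compared with siNtc within the BSA libraries, the contrasts in which the 8 genes were tested. With siErk3 in BSA, 0 of 8 were called by edgeR, against 0.785% of all tested genes, which is 171 genes and 113 to 144 with 1 library left out. Unadjusted p was below 0.05 for 2 of them, as for 10.6% of all tested genes, and DESeq2 also called 0. The 7 genes other than Ptges lay between -0.20 and 0.16 on the log2 scale. The 2 with the low p were Ptges2, with a log2 fold change of 0.16 (SE 0.07, edgeR adjusted p = 0.352), and Ptges3, with 0.10 (SE 0.05, edgeR adjusted p = 0.464). Ptgs2 had 0.09 (SE 0.17, edgeR adjusted p = 0.923), which leaves a wide margin around its level.

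With siMk5 in BSA, 0 of 8 were called by edgeR, against 0.0643% of all tested genes. That share rests on 14 genes, a count between 6 and 25 with 1 library left out. Of the 8, 1 had an unadjusted p below 0.05, as did 6.89% of all tested genes, and DESeq2 called 0. This 1 was Ptges (edgeR adjusted p = 0.596), at 7 counts against 0 over the group. The other 7 had log2 fold changes between 0.04 and 0.42, with Hpgd the highest at 0.42 (SE 0.30, edgeR adjusted p = 0.817), a value between -0.08 and 0.65 with 1 library left out. A p that misses the threshold does not show that the levels were equal, and for Ptges, Hpgd and Ptgs2 the standard errors were too large to tell a modest difference from none.

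With PA the silenced groups were described only. The difference of siErk3 against siNtc lay between -0.29 and 0.12 on the log2 scale for the 7 genes other than Ptges, and that of siMk5 between -0.45 and 0.06. The lowest value in both was that of Hpgd, which ran from -0.62 to -0.01 with siErk3 and from -1.11 to -0.10 with siMk5 when 1 library was left out, so its place is not firm. Ptger4 was at -0.24 (SE 0.09) with siErk3 and at -0.20 (SE 0.09) with siMk5, while Ptgs2 was at 0.06 (SE 0.14) and 0.03 (SE 0.14). None of the 8 was called in these contrasts, where 0.556% and 0.547% of all tested genes were. None was called either in the interaction of siErk3 or siMk5 with PA, which asks whether the step with PA differs from that in siNtc and called 0.0367% and 0.211% of all tested genes. Those shares rest on 8 and 46 genes, or 0 to 24 and 22 to 67 with 1 library left out. The interaction of Ptgs2 was -0.03 (SE 0.22) with siErk3 and -0.06 (SE 0.22) with siMk5. Nothing is read from these counts, since the genes were selected with the PA libraries known.

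Beyond the 8 genes, 74 other genes of the pathway and its branches were grouped into 6 lists by function, and 65 of them passed the count filter. With PA, 20 rose and 15 fell in siNtc, 18 rose and 15 fell in siErk3, and 18 rose and 13 fell in siMk5 by edgeR, out of 65 each. The called genes made up 53.8%, 50.8% and 47.7% of the 65, against 30.6%, 32.1% and 29.7% of all tested genes, and nothing is read from the difference, as the lists were chosen with earlier results known. Under all 3 siRNAs 18 genes were called higher and 11 lower, 9 were called under 1 or 2 of the siRNAs and 27 under none. Over all tested genes, 2604 (12%) were called higher and 2341 (10.8%) lower under all 3. For none of those 9 was the interaction called, with the lowest edgeR adjusted p at 0.390 for Tbxa2r with siMk5. The lists went in different directions, and their medians in siNtc, over genes with a mean of at least 1 CPM, ran from -0.79 for the receptors to 0.70 for the cyclic AMP response genes.

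Enzymes that free or rebuild arachidonate moved both ways. Of 20 tested, 5 rose and 3 fell in siNtc (40% called, against 30.6% of all tested genes), and the median over the 14 genes with at least 1 CPM was 0.10 on the log2 scale. Pla2g12a, a secreted phospholipase A2, went from a mean of 20.2 to 39.6 CPM and rose by 0.96 (SE 0.07, edgeR adjusted p = 4.03e-13). Plaa, an activator of phospholipase A2, rose by 0.51 (SE 0.05, edgeR adjusted p = 1.83e-10), and Dagla, which makes the endocannabinoid precursor of a further arachidonate pool, by 0.46 (SE 0.08, edgeR adjusted p = 4.77e-06). Mgll, the lipase that frees arachidonate from that endocannabinoid, went from 56.4, 58.6 and 59.1 CPM to 36.3, 32.2 and 31.6. It fell by 0.80 (SE 0.06, edgeR adjusted p = 1.69e-12).

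Other genes of this list were called at lower counts or under fewer siRNAs. Pla2g15, the lysosomal phospholipase, fell by 0.41 (SE 0.09, edgeR adjusted p = 0.000143), and Lpcat2, an acyltransferase that rebuilds phospholipids, by 0.81 (SE 0.22, edgeR adjusted p = 0.00291). Pla2g2e, a secreted phospholipase near 1 CPM, rose by 0.60 in siNtc (SE 0.25, edgeR adjusted p = 0.0472), by 1.87 in siErk3 and by 1.58 in siMk5. The differences between these steps were not called, with an edgeR adjusted p of 0.411 for siErk3 and 0.507 for siMk5. Acsl4, which activates arachidonate, passed the fold of 1.3 in siNtc at 0.42, but not in siErk3 at 0.29 or in siMk5 at 0.35. Anxa1, an inhibitor of phospholipase A2, passed it in siErk3 at -0.40, with -0.31 in siNtc and -0.38 in siMk5, and Pla2g4e, at under 0.25 CPM, was called lower in siErk3 at -2.04, with -2.09 in siNtc and -1.503 in siMk5.

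Among the synthases that compete with the prostaglandin E2 branch, 3 rose and 4 fell of 11 tested in siNtc (63.6% called, all tested genes 30.6%), with a median of -0.06 over 9 genes. Akr1b7 and Akr1b3, aldo-keto reductases with prostaglandin F synthase activity, both rose. Akr1b7 went from 0.211, 0.417 and 0.284 CPM to 3.33, 2.78 and 3.08 and rose by 3.24 (SE 0.30, edgeR adjusted p = 1.12e-10), and the far more abundant Akr1b3 rose by 0.46 from a mean of 131 CPM (SE 0.05, edgeR adjusted p = 1.39e-09). The carbonyl reductase Cbr3 rose by 1.62 (SE 0.10, edgeR adjusted p = 1.6e-14), while its relative Cbr2 fell by 0.66 (SE 0.07, edgeR adjusted p = 3.25e-09). Ptgis, which makes prostacyclin, went from 56.8, 62.6 and 64.1 CPM to 47.5, 48.9 and 43.8 and fell by 0.39 (SE 0.06, edgeR adjusted p = 1.59e-06). In siMk5 its value of -0.31 did not pass the fold of 1.3.

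Prxl2b, a prostaglandin F synthase near 1 CPM, fell by 0.77 (SE 0.30, edgeR adjusted p = 0.0389) in siNtc, and Ptges3l, a relative of Ptges3, by 0.73 (SE 0.11, edgeR adjusted p = 8.59e-07). For Ptges3l the step in siMk5, at -0.35, was not called, and the interaction was not called either (edgeR adjusted p = 0.550). Ptgds, the prostaglandin D synthase, stayed near 2.6 CPM in siNtc and was not called, and Tbxas1, the thromboxane synthase, held at most 0.0435 CPM as a group mean.

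Receptors other than Ptger4 were mostly scarce. Of 7 tested, 2 rose and 3 fell in siNtc (71.4% called, all tested genes 30.6%), with a median of -0.79 over the 4 with at least 1 CPM. Ptgir, the prostacyclin receptor, went from 0.703, 0.708 and 0.662 CPM to 2.61, 3.10 and 3.99 and rose by 2.21 (SE 0.23, edgeR adjusted p = 1.09e-09). Ptgfr, the receptor for prostaglandin F2 alpha, went from 9.97, 8.79 and 7.33 CPM to 3.87, 3.51 and 2.63 and fell by 1.36 (SE 0.17, edgeR adjusted p = 6.58e-08). The EP1 receptor gene Ptger1 fell by 0.65 (SE 0.13, edgeR adjusted p = 0.000124). Ptger2 and Ptger3, which encode the EP2 and EP3 receptors, held at most 0.103 CPM as group means, so Ptger4 and Ptger1 were the receptor genes for prostaglandin E2 with counts to speak of.

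The most abundant gene of the receptor list was Ptgfrn, a membrane protein that dampens binding to the F2 alpha receptor. It went from 801, 935 and 930 CPM in siNtc with BSA to 523, 465 and 410 with PA, and fell by 0.93 (SE 0.09, edgeR adjusted p = 2.9e-10). The thromboxane receptor gene Tbxa2r was called in siNtc at 1.78 (SE 0.69, edgeR adjusted p = 0.035) from means of 0.137 and 0.427 CPM, but not in siErk3 at 0.33 or in siMk5 at -0.998, and its interaction with siMk5 was not called (edgeR adjusted p = 0.390). Its counts in siNtc were 4, 2 and 1 with BSA and 1, 16 and 10 with PA, so the groups overlapped.

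Genes of transport and breakdown were led by Abcc4. This gene, which encodes a transporter that carries prostaglandin E2 and cyclic nucleotides out of cells, stood at 10.2, 11.8 and 10.5 CPM in siNtc with BSA and at 121, 132 and 138 with PA. It rose by 3.58 (SE 0.09, edgeR adjusted p = 1.5e-24) in siNtc, by 3.70 (SE 0.08) in siErk3 and by 3.42 (SE 0.09) in siMk5. The prostaglandin reductase Ptgr3 rose by 0.45 (SE 0.06, edgeR adjusted p = 8.08e-08), and Ptgr1 fell by 0.38 (SE 0.06, edgeR adjusted p = 1.34e-06) in siNtc, with -0.26 in siErk3 and -0.36 in siMk5 short of the fold of 1.3. The uptake carrier Slco2a1 held at most 0.283 CPM as a group mean and was not called. Of the 5 genes listed, 2 rose and 1 fell in siNtc (60% called, all tested genes 30.6%), with a median of 0.07 over 4.

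The lipoxygenase and epoxide branches use the same arachidonate for other products. Of 10 tested genes 1 rose and 3 fell in siNtc (40% called, all tested genes 30.6%), with a median of -0.08 over 4. Ephx1, an epoxide hydrolase, rose by 0.69 from a mean of 105.2 to 170 CPM (SE 0.06, edgeR adjusted p = 3.14e-11). Ltc4s, the leukotriene C4 synthase, fell by 1.87 (SE 0.30, edgeR adjusted p = 3.35e-06) and the 5-lipoxygenase partner Alox5ap by 0.92 (SE 0.32, edgeR adjusted p = 0.0194), both from under 2 CPM. Alox5 itself was the most abundant lipoxygenase at a mean of 77.7 CPM with BSA and 69.8 with PA, and was not called. Alox12, at 0.503 CPM, was called lower in siNtc at -1.13 and in siMk5 at -2.15, with -0.54 in siErk3.

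The last list held genes that respond to cyclic AMP, the messenger that rises when the EP2 or EP4 receptor is engaged and also when many other receptors are. Of 12 genes, 7 rose and 1 fell in siNtc (66.7% called, all tested genes 30.6%), with a median of 0.70 over 11 genes against 0.02 over all genes. Areg, a growth factor gene, went from 15, 36 and 28 counts in siNtc with BSA to 738, 984 and 1044 with PA and rose by 5.03 (SE 0.21, edgeR adjusted p = 1.13e-18). The orphan receptor genes Nr4a2 and Nr4a1 rose by 1.48 (SE 0.08, edgeR adjusted p = 2.5e-15) and by 1.24 (SE 0.11, edgeR adjusted p = 5.71e-11). Pde4b, a phosphodiesterase that degrades cyclic AMP, rose by 0.96 (SE 0.07, edgeR adjusted p = 2.13e-13).

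In the same list Nr4a3, Crem and Per1 also rose, by 1.19, 0.70 and 0.56. Sik1, another gene induced by cyclic AMP, went the other way and fell by 0.81 from a mean of 102 to 58.5 CPM (SE 0.05, edgeR adjusted p = 1.84e-14). Pde4d, Pde3b and Pde10a were not called, and Ppargc1a, below 1 CPM, was called lower in siMk5 at -1.04, with -0.51 in siNtc and -0.02 in siErk3. These genes answer to several signals, and no cyclic AMP or prostaglandin was measured in the files used here.

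**Figure D4:**
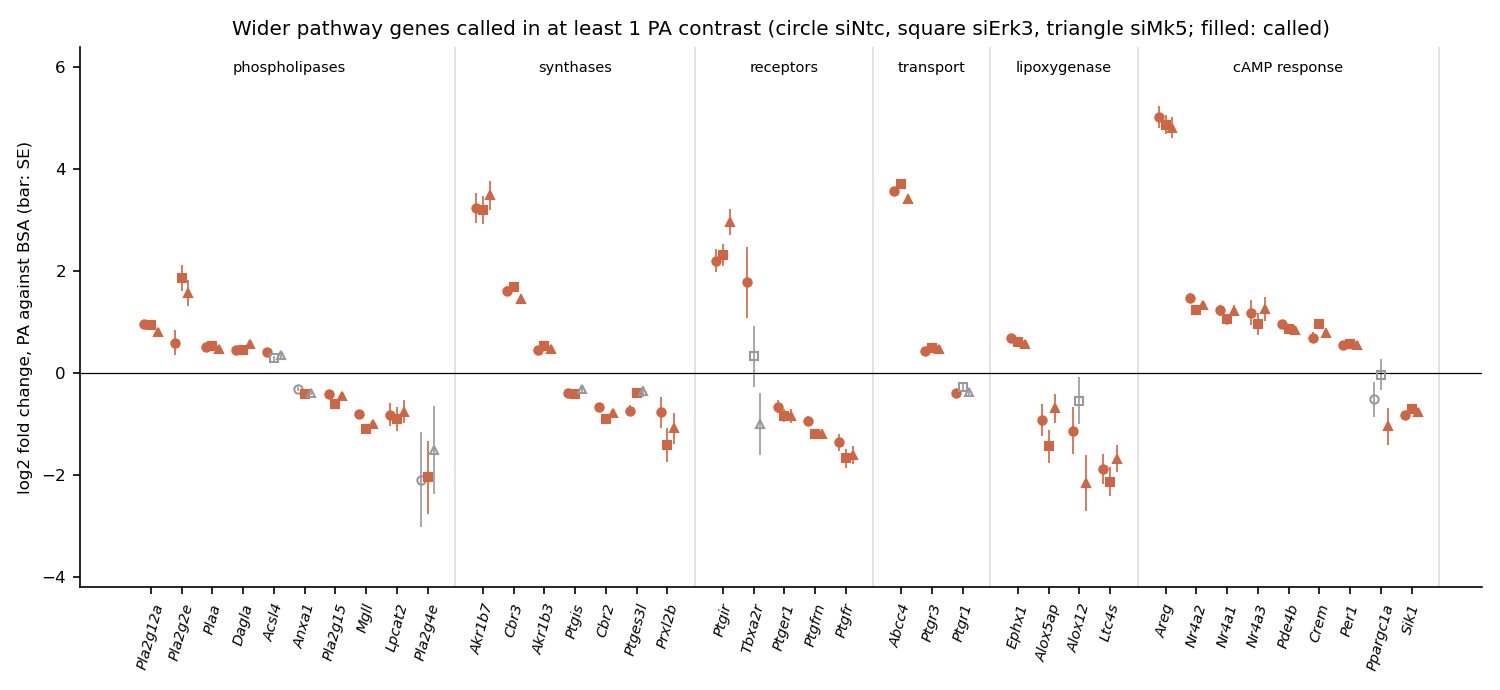
Log2 fold change of PA against BSA, with its SE, for the 38 wider pathway genes called under at least 1 siRNA, ordered within each list; circles are siNtc, squares siErk3 and triangles siMk5, and filled symbols passed the test and the fold of 1.3. Areg, Abcc4 and Akr1b7 stand highest, with 5.03, 3.58 and 3.24 in siNtc, and the 3 siRNAs lie close together for the well counted genes.

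The plot of the wider pathway shows rising and falling genes side by side within every list, and wide error bars only for genes of few counts such as Tbxa2r, Alox12 and Pla2g4e. The comparisons of PA with BSA under each siRNA use different libraries, so the closeness of the 3 symbols reflects 3 separate sets of 6 libraries. Silencing itself called 0 of the 65 genes by edgeR in all 4 contrasts with siNtc and in both interactions, and DESeq2 also called 0 in each. Of all tested genes, edgeR called 0.785% with siErk3 and 0.0643% with siMk5 in BSA, and 0.556% and 0.547% in PA. In the interactions it called 0.0367% and 0.211%. Shares this low would leave few or none of 65 genes called, so nothing is read from the 0. An unadjusted p below 0.05 was found for 11 genes with siErk3 and 6 with siMk5 in BSA, for 9 and 6 in PA, and for 5 in each interaction. In the same order these are 16.9%, 9.23%, 13.8%, 9.23%, 7.69% and 7.69% of the 65, against 10.6%, 6.89%, 8.28%, 6.79%, 6.10% and 7.43% of all tested genes. In 2 cases the adjusted p passed but the fold stayed below 1.3, namely Mgll with siErk3 in BSA at 0.27 (SE 0.06, edgeR adjusted p = 0.00833) and Alox5 with siMk5 in PA at 0.26 (SE 0.06, edgeR adjusted p = 0.0284). Pla2g2e came close with siErk3 in BSA at -1.11 (SE 0.30, edgeR adjusted p = 0.0633).

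Ptgs2 and Pla2g4a are neighbours in the genome, which the selection did not use. In the annotation of the count table (build GRCm39), Pla2g4a spans chr1:149705369-149837041 on the minus strand and Ptgs2 spans chr1:149975782-149983978 on the plus strand, so that their starts face each other across 138.7 kb with the noncoding gene Ptgs2os between them. Ptgs1, Ptges and Ptges2 are all on chromosome 2, Ptges3 is on chromosome 10, Ptger4 on 15 and Hpgd on 8. None of the 8 shares exonic bases with another gene on its own strand. On the opposite strand Ptgs1 shares 3.81% and Ptger4 16.5% of its exonic bases, which strand-specific counting keeps apart.

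Genes within 500 kb of Ptgs2 were then read out with no test, a choice made after the values of Ptgs2 and Pla2g4a had been seen. The noncoding gene Ptgs2os starts 68 bases from Ptgs2 on the other strand and held 16, 47 and 22 counts in siNtc with BSA and 69, 83 and 81 with PA, a log2 fold change of 1.36 (SE 0.21). Ptgs2os2, a noncoding gene 64.9 kb away, held 5, 14 and 14 counts and then 67, 88 and 62, a log2 fold change of 2.60 (SE 0.24). Both were far below Ptgs2, which had at least 24142 counts per library with PA. Farther out, Odr4 was at 0.24 (SE 0.05) and Tpr at 0.33 (SE 0.04), both about 293 kb away, whereas Prg4, the gene for the lubricant lubricin at 366 kb, was at 1.71 (SE 0.10).

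**Figure D5:**
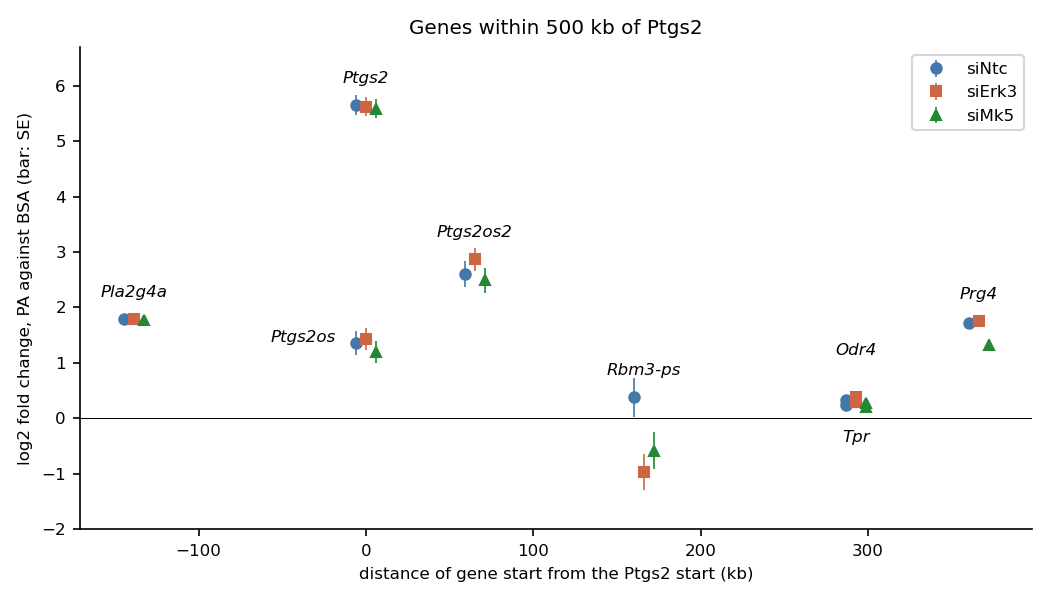
Log2 fold change of PA against BSA, with its SE, for genes with at least 200 counts whose start lies within 500 kb of the Ptgs2 start, against the distance in kb; circles are siNtc, squares siErk3 and triangles siMk5, shifted slightly sideways so that they can be told apart. Ptgs2 stands at 5.65, Ptgs2os2 at 2.60, Pla2g4a at 1.79 and Prg4 at 1.71 in siNtc, with Odr4 and Tpr between 0.21 and 0.38.

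The plot of the neighbours shows Pla2g4a, Ptgs2os, Ptgs2 and Ptgs2os2 as a block of high values, then Rbm3-ps, Tpr and Odr4 with lower ones, and Prg4 high again. The pseudogene Rbm3-ps, 166 kb away, had 234 counts over all libraries and values from -0.97 to 0.38. All of these values come from the same libraries and the same contrasts as those of Ptgs2, so they describe the region and support nothing about it.

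The promoters of the 8 genes were looked at because Ptgs2, Pla2g4a, Ptgs1 and Ptges3 were higher together with PA. RefSeq promoters, of 250 bases before to 50 after the start on build GRCm38.p6, were at hand for all 8 genes, with 9 windows because Pla2g4a has 2 starts. The letters of 7 motifs were searched on both strands, all of them chosen with the behaviour of these genes known. For Ptgs2 the stretches around its matches other than that to the kappa-B lettering are shown. They were located by exact match in GRCm39 at chr1:149975707-149975736 and chr1:149975786-149975815, on the plus strand. The kappa-B match, at base -23, lies between them and is not shown. The first runs from base -75 to base -46 before the start, with the C/EBP palindrome TTGCGCAA in capitals. The second runs from base 5 to base 34 of the first exon, with CGTCA, the reverse complement of the short cAMP response element TGACG, overlapping the E-box CACGTG in capitals.
Ptgs2, before the start: cggttcTTGCGCAActcactgaagcagaga
Ptgs2, first exon: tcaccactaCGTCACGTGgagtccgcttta

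These letters differ greatly in how common they are. TTGCGCAA was found in 0.183% of the 32851 promoters of the same length and, among the 8 genes, in Ptgs2. CACGTG was found in 7.15% of all promoters and in those of Ptgs2 and Ptges2, and TGACG in 20.8% and in those of Ptgs2 and Ptges3. All 30 bases of the first stretch also lie in exons of longer transcripts of Ptgs2 that begin upstream in the GENCODE annotation. The start of Ptgs2os falls within this stretch.

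Stretches from the promoters of Pla2g4a and Ptgs1 are shown because both genes were higher with PA. They were cut to hold none of the 7 motifs, while the full windows did hold matches, kappa-B at base 28 for Ptgs1 and TATAAA at base -200 for 1 start of Pla2g4a. That of Pla2g4a, 120 bases that end at base -13, is at chr1:149837054-149837173 on the minus strand, and that of Ptgs1, from base -120 to base -1, is at chr2:36120318-36120437 on the plus strand, both free of exons of the gene.
Pla2g4a: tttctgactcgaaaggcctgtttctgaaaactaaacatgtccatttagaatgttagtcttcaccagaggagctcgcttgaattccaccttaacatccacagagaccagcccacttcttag
Ptgs1: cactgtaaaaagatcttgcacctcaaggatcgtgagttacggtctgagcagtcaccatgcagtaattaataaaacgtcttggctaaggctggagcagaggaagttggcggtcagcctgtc

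The full cAMP response element TGACGTCA, present in 1.79% of all promoters, was in none of the 8, and neither was the C/EBP-ATF composite TGATGCAA, present in 0.895%. Of the 12 cyclic AMP response genes listed, 9 had a promoter in the table, with 14 windows, and the full element was in 1 of these windows, that of Areg, at base -61. The stretch from base -70 to base -41 is at chr5:91287388-91287417 on the plus strand, with the element in capitals, which contains TGACG on both strands.
Areg: gctggtccgTGACGTCAcgggcggtggctc

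The loose kappa-B lettering, GGG and CC with 5 free bases between them, was in 5 of the 8 (Ptger4, Ptges, Ptges3, Ptgs1 and Ptgs2) and in 50.8% of all promoters, and the TATA box letters TATAAA in Hpgd, in 1 of the 2 starts of Pla2g4a and in 13.6% of all promoters. A match is a run of letters and not a bound site, and the absence of a match says only that the letters are not in the window.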

How the data were processed

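Paired reads from strand-specific poly(A) libraries of 18 C2C12 samples were trimmed, aligned with STAR to GRCm39 and counted with featureCounts 2.0.0 on Ensembl 105 by the authors, and the deposited counts of read pairs per gene are not normalised. Duplicates stayed in, and pairs touching 2 genes on 1 strand were left out, which lowers overlapping genes. The log2 table deposited by the authors was used only to check that it equals the log2 of scaled counts plus 1 made with DESeq2 (largest relative deviation 3.6e-14). The deposited gene lengths, in exonic bases, served for levels per kb.

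Genes with at least 10 counts were fitted with edgeR 4.0.16 (R 4.3.3, TMM scaling, quasi-likelihood test, 1 coefficient per group over 18 libraries) and p-values adjusted by Benjamini-Hochberg over 21772 genes. A gene was called at an adjusted p below 0.05 and a fold above 1.3. Log2 CPM used a prior count of 2. Symbols were mapped through GENCODE. Alternatives were DESeq2 1.42.0, its size factors, no filter, a replicate block, only the libraries of the groups compared, no fold criterion, a prior count of 1 and leaving out each library.

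Named are the 8 genes, the 2 silenced genes, wider pathway genes called in a contrast or with a main role in their list, the leading markers, genes near Ptgs2 and the 5 genes at the top of each search for likeness. Members and lists were chosen with earlier results of these data known, and the neighbours, deviations and motifs after the values had been seen. The depth of 13041979 to 28496727 counts limits Ptges, Hpgd and other genes near 1 CPM. The scripts were tested on simulated data, in which edgeR called 199 of 200 changed genes at the spread of these libraries and 136 of 200 at a dispersion of 0.04.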

Additional observations from a re-analysis of the deposited data

How the results depend on the processing

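The counts of wider pathway genes called with PA kept within 1.5 times the reported value under every alternative tried, with 28 to 34 in siNtc, 31 to 34 in siErk3 and 29 to 32 in siMk5 when 1 library was left out, and 30, 32 and 31 by DESeq2. With silencing, counts of 0 became 1 in a few settings. With no filter on low counts, 1 gene was called with siErk3 in BSA (Pla2g2e) and 1 with siErk3 in PA (Ptgfr). With the adjusted p alone and no fold criterion, 1 was called with siErk3 in BSA (Mgll) and 1 with siMk5 in PA (Alox5). The cause was not tested. Over all genes the calls for silencing were less stable, with 113 to 233 for siErk3 and 6 to 61 for siMk5 in BSA, 71 to 208 and 85 to 172 in PA, and 0 to 72 and 22 to 130 for the interactions.

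With the replicate block, 1 gene was called with siErk3 in BSA (Pla2g2e), and the other counts of 0 were kept. Deviations of libraries with the same number correlated above 0.1 in 2 of 15 pairs of groups (r from -0.316 to 0.211). With 3 libraries a group this cannot decide whether the numbers pair the samples, and the labels do not say. In contrasts with PA libraries, refitted values of the 8 genes were compared with the largest spread between replicates. In the BSA contrasts it was asked only whether the call changed. By these rules 8 cases moved, 6 for Ptges and 2 for Ptgs1, and the other 878 did not. A case counted as unmoved in BSA could still shift in size. With 1 library left out, Ptges ran from 2.14 to 3.97 with siErk3 and from 3.21 to 4.91 with siMk5. No called value changed sign. DESeq2 size factors shifted log2 fold changes by at most 0.02, and the spread of Ptgs2 with PA was 0.33 under each scaling tried.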
